A study of Mus musculus with 4 samples.

Results

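The genes described here encode the proteins of the cytosolic ribosome. They are the 79 protein-coding genes, of 19991 genes in the deposited TPM table, whose symbol is Rpl or Rps with a number and at most 1 further letter, or is Rplp0, Rplp1, Rplp2 or Rpsa. The expression matched 80 symbols, of which 1, the processed pseudogene Rpl6l, was not protein coding. Among the members, 44 belong to the large subunit, 32 to the small subunit and 3 to the stalk. Ribosomal proteins that carry other symbols, such as Fau, Rack1 and Rps3a1, were not members and are described beside them.

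RNA was sequenced from whole uterus of mice on gestational day 4, about when the uterus becomes receptive to the embryo. The 2 knockout samples (Pgr gecKO) carried Cre at both copies of Prss29, a gland protease gene, and floxed alleles of Pgr, the progesterone receptor gene. The 2 control samples are labelled control wild type, with no allele named. Cre under Prss29 is meant to act in gland epithelium, so other cell types of the tissue would keep the receptor. Effects of Cre or of the changed Prss29 locus cannot be told apart from those of losing Pgr. No strain or age in weeks is given in the sources used here, nor whether each sample came from 1 mouse. The p-values therefore rest on the spread among these 4 libraries, part of which may be technical. In whole tissue, fewer cells of a type and less RNA per cell cannot be told apart.

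A cytosolic ribosome is built from a large and a small subunit, each a core of ribosomal RNA covered by proteins. Most of these are small and basic, and most are needed in equal numbers. Their mRNAs begin with a run of pyrimidines, the terminal oligopyrimidine (TOP) tract, through which mTORC1 signalling is known to set their translation. Growing and secreting tissues, such as the uterus that prepares for implantation, have a high demand for new ribosomes.

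Promoter stretches are shown for the 4 members with the highest and the 4 with the lowest fold change, among those matched in the RefSeq promoter table (build GRCm38.p6). The RefSeq table held 58 of the 79 members, and its first entry for each symbol was used. Every stretch holds 30 bases before the annotated start and 20 bases from it, read 5′ to 3′ on the gene's strand. Capitals mark the longest run of C or T that touches the 10 bases on either side of the start. The stretches lie at chr5:65391412-65391461 (minus strand) for Rpl9, chr5:107900498-107900547 (plus) for Rpl5, chr3:90213629-90213678 (minus) for Rps27 and chr10:23787190-23787239 (minus) for Rps12. They lie at chr9:64173357-64173406 (plus) for Rpl4, chr11:97782420-97782469 (minus) for Rpl23, chr10:128626487-128626536 (minus) for Rps26 and chr5:115559437-115559486 (plus) for Rplp0.
Rpl9: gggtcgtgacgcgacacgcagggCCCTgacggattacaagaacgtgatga
Rpl5: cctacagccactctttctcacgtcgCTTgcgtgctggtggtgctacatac
Rps27: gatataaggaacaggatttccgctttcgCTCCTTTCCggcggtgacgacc
Rps12: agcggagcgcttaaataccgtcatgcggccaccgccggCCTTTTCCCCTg
Rpl4: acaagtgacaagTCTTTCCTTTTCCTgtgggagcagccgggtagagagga
Rpl23: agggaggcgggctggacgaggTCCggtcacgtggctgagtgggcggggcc
Rps26: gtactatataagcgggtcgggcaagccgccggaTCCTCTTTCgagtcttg
Rplp0: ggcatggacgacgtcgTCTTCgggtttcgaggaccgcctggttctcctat
Long and short runs stood on both sides of the ranking. The run was 9 bases in Rps27 and 11 in Rps12, which ranked high, and 14 in Rpl4 and 9 in Rps26, which ranked low. In Rpl9, Rpl5, Rpl4, Rpl23 and Rplp0 the marked run ends before the annotated start. Such a run would lie outside an mRNA that begins at that start. In Rps12 and Rps26 the marked run begins after the annotated start, and in Rps27 it spans the start. The counts of runs below include all of these positions, so a counted run need not begin the mRNA. Rpl5 also holds a longer run farther upstream, and Rplp0 a longer one farther downstream. Neither touches the 10 bases on either side of the start, and neither is marked. A run of at least 6 bases on the sense strand was found in 33 of the 58 members (56.9%), against 29.1% of 27025 promoters. The median log2 fold change was 0.42 in the 33 members with such a run and 0.42 in the 25 without.

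Some short motifs were more frequent in the whole promoter window of the members, from 250 bases before the start to 50 after it and on either strand. CCGGAAG, the core bound by ETS-family factors, was in 39.7% of the 58 members and in 9.12% of all promoters. CTTTCC was in 46.6% of members and 26.3% of all promoters, and lies inside the pyrimidine run of Rps27 above. GGGCGG, a core bound by SP1, was in 58.6% and 35.9%, and AAGATGG, a core bound by YY1, in 13.8% and 6.48%. TATAAA was in 8.62% of members and in 14.2% of all promoters. A match describes the letters of the window, not the binding of a factor.

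The libraries held 31901278 and 29932153 counts in knockouts 1 and 2, and 35149834 and 33843256 in controls 1 and 2. Knockout 2 stood apart in the members, as the next paragraphs show. Fold changes that its removal moved by over 1.5 times are given without it for most of the genes and lists described. Prss29 had 0 and 0 counts in the knockouts and 1524 and 190 in the controls. Pgr, which other uterine cells also transcribe, was at 130.1 and 146.2 CPM in the knockouts and 140.5 and 138.6 CPM in the controls, and does not check the deletion in glands. The defining markers of uterine stroma summed to 6390 and 7605 CPM in the knockouts and 10497 and 5544 CPM in the controls. Those of gland epithelium summed to 68.8 and 96.8 CPM in the knockouts and 219 and 148 CPM in the controls. The gland sum includes Prss29 itself, whose locus carries Cre in the knockouts. Prss29 was at 0 and 0 CPM in the knockouts and 43.9 and 5.41 CPM in the controls. Markers of smooth muscle summed to 5981 and 9552 CPM in the knockouts, against 7217 and 2350 CPM in the controls. CPM are the counts scaled to a common library size with TMM factors, a normalisation that takes most genes as unchanged.

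Ribosomal protein genes took a larger share of the counts in 1 of the 2 knockout libraries. They held 5.63% and 7.99% of all counts in knockouts 1 and 2, against 5.41% and 5.19% in controls 1 and 2. Knockout 1 thus lay close to the controls, and knockout 2 well above all of the others. The share was 6.81 ± 1.67% in knockouts and 5.30 ± 0.16% in controls (SD, n = 2 each), a difference of 1.51 percentage points with exact two-sided permutation p = 0.333, the smallest that 2 against 2 samples can give. Without knockout 2 the difference was 0.33, and without knockout 1 it was 2.69 percentage points.

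**Figure D1:**
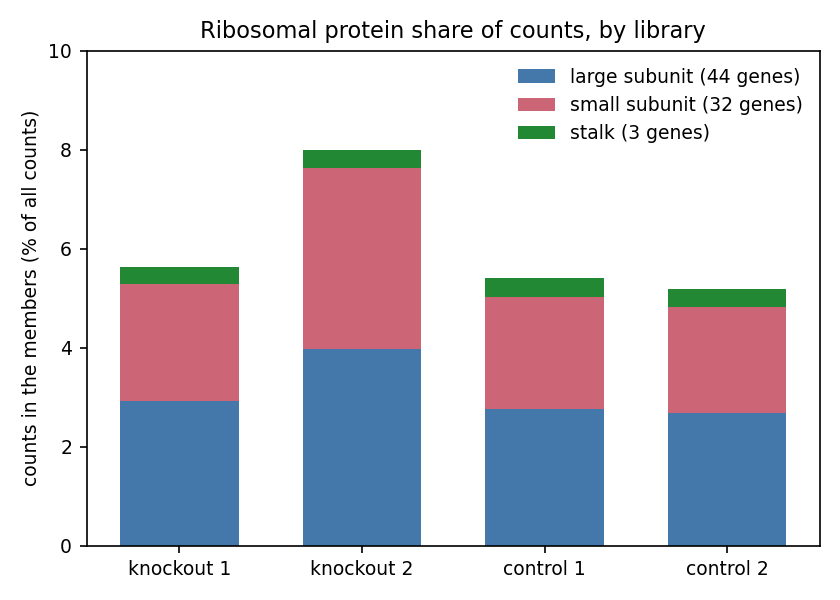
Share of all counts (%, vertical axis) held by the 79 ribosomal protein genes in each library, stacked by large subunit, small subunit and stalk. Knockout 2 reaches 7.99%, while knockout 1 and both controls lie between 5.19% and 5.63%.

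Both subunits held a larger share in knockout 2 than in any other library, while the summed share of the stalk genes was highest in control 1. Large-subunit genes held 2.92% and 3.98% of counts in the knockouts and 2.77% and 2.68% in the controls. Small-subunit genes held 2.37% and 3.65% in the knockouts and 2.27% and 2.14% in the controls. The 3 stalk genes held 0.341% and 0.349% in the knockouts and 0.378% and 0.366% in the controls. By share of counts, both knockouts thus lay below both controls. On the CPM scale the 3 genes summed to 3291 and 3725 in the knockouts and 3829 and 3532 in the controls. There the groups overlapped. Of the stalk genes, Rplp1 and Rplp2 were themselves highest in knockout 2 on the CPM scale.

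No member passed the test of the group difference. Of the 79 members, all of which passed the low-count filter, 0 had an adjusted p under 0.05 in edgeR's quasi-likelihood test, where 0.00477% of all 20950 genes tested were called. At an unadjusted p under 0.05 the count was 0 of 79, against 3.01% of all genes. With no low-count filter it was 1 of 79, Rpl9, against 3.27% of all genes. DESeq2 called 0 members, against 0.406% of all genes, and limma-voom also 0. The smallest unadjusted p among members was 0.113, for Rpl9, in the fit across all genes by edgeR. All 79 intervals (95%) of the log2 fold change included 0, with standard errors between 0.23 and 0.60.

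The fold changes nonetheless lay mostly on one side. Of the members, 77 had a log2 fold change above 0 and 2, Rplp0 and Rps4l, below it, whereas 51.1% of all genes tested were above 0. With total counts in place of TMM factors, 76 were above 0. Their median was 0.42, or 1.33-fold, beside a median of 0.0063 over all genes tested. In 34 of the 79 members both knockouts lay above both controls, against 12.2% of all genes. In 1 member, Rplp0, both lay below, against 13.1% of all genes. The median was 0.062 without knockout 2, with 56 of 79 members above 0 beside 47.8% of all genes and 0 at an unadjusted p under 0.05 beside 2.96%. It was 0.71 without knockout 1. Without knockout 1, 76 members were above 0, against 46.7% of all genes. In that fit 30 members had an unadjusted p under 0.05, against 8.24% of all genes, and 0 passed after adjustment, against 0.22%, where the smallest adjusted p was 0.313 in edgeR.

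**Figure D2:**
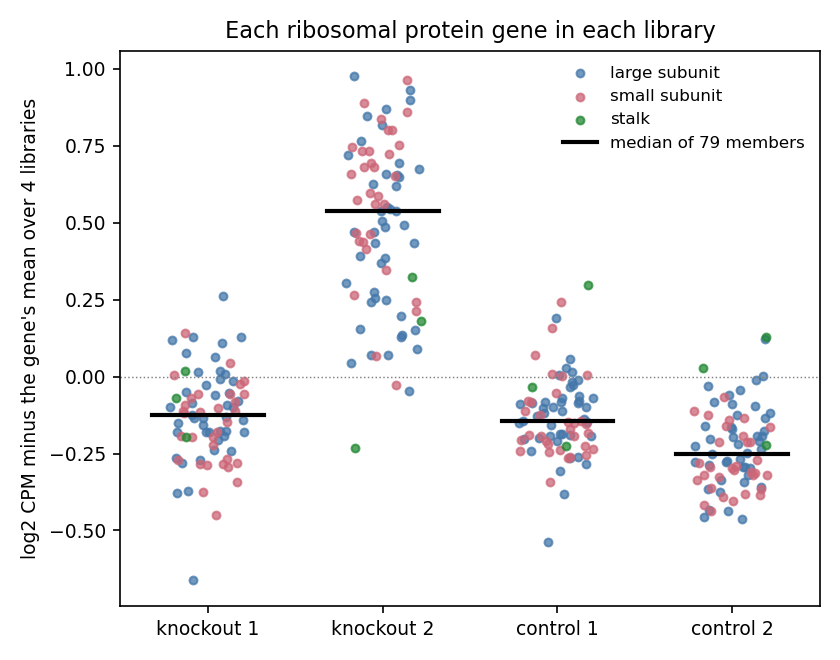
Log2 CPM of each of the 79 members minus its mean over the 4 libraries (vertical axis), with 1 point per gene and a bar at the median. The medians are −0.13 in knockout 1, 0.54 in knockout 2, −0.15 in control 1 and −0.25 in control 2.

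Gene by gene, knockout 2 was the highest of the 4 libraries in 70 of the 79 members, against 29.9% of all genes tested. Among genes with a mean over 50 CPM, it was highest in 68 of 74 members, against 36.5% of all 5146 such genes. Knockout 1 was highest in 5 members, against 23.5% of all genes. Control 1 was highest in 4, against 21.8%, and control 2 in 0, against 24.8%. Among the 5 were Rpl23, Rpl24, Rpl28 and Rpl3l, and the 4 were Rplp0, Rps4l, Rpl29 and Rps26, all named here after their values were seen. The lowest library was control 2 in 53 members, against 24.2% of all genes. Knockout 1 lay above both controls in 35 members, between them in 38 and below both in 6. Knockout 2 lay above both controls in 74. For these counts of each knockout against the controls, the share over all genes was not taken.

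The difference between the knockouts was larger in size than that between the controls in 68 of the 79 members. The share over all genes was not taken for that count. Knockout 2 minus knockout 1 ran from −0.15 to 1.53, the value of Rpl34, on the log2 scale, with a median of 0.66 (1.58-fold). Knockout 2 minus knockout 1 was over 0.5 in 51 members, against 18.5% of all genes. It was over 1 in 16 members, with no share over all genes taken. Control 2 minus control 1 ran from −0.59 in Rps27l to 0.66 in Rpl3l, with a median of −0.11. The median of knockout 2 minus knockout 1 was 0.80 in small-subunit genes, 0.61 in large-subunit genes and 0.16 in the stalk.

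**Figure D3:**
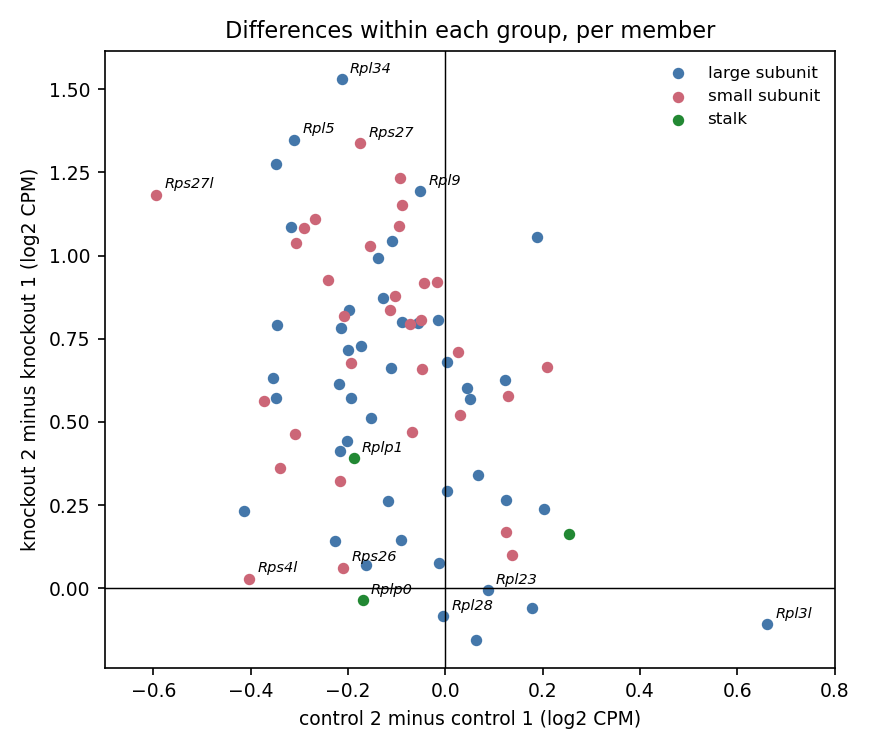
Difference between the replicates of each group for every member on the log2 CPM scale, with knockout 2 minus knockout 1 on the vertical and control 2 minus control 1 on the horizontal axis. Most points lie above 0 on the vertical axis, up to 1.53 for Rpl34, and 75 of the 79 lie within 0.4 of 0 on the horizontal one.

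The order of the members by level was largely kept. Across the 79 members, Spearman's rho of log2 TPM was 0.987 and 0.995 between knockout 1 and controls 1 and 2, and 0.986 between the controls. It was 0.920 between knockouts 1 and 2, and 0.940 and 0.920 between knockout 2 and controls 1 and 2. These are correlations across genes of shared libraries, given as a description.

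Among large-subunit genes, the highest fold changes belonged to Rpl9 and Rpl5. Rpl9, which encodes a protein of the subunit's surface, had 750.1 and 1717 CPM in the knockouts and 727 and 701 CPM in the controls. Its log2 fold change was 0.79 (SE 0.43), and it was 0.074 without knockout 2. Rpl5, whose protein carries the 5S ribosomal RNA and can bind the p53 regulator MDM2, had 794 and 2022 CPM, against 928 and 748 CPM. In Rpl5 knockout 1 lay between the controls, and the log2 fold change of 0.75 (SE 0.48) turned to −0.075 without knockout 2. Rpl11, the partner of Rpl5 in both roles, had 702 and 1002 CPM in the knockouts and 693 and 623 CPM in the controls. In Rpl11 both knockouts lay above both controls, by a narrow margin in knockout 1, and the log2 fold change of 0.37 was 0.097 without knockout 2.

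Rpl32 and Rpl17, structural proteins of the large subunit, were also highest in knockout 2. Rpl32 had 502 and 1066 CPM in the knockouts and 537 and 431 CPM in the controls (log2 fold change 0.70, SE 0.41). Rpl17 had 914 and 1901 CPM in the knockouts and 828 and 943 CPM in the controls. Both genes had knockout 2 alone outside the range of the controls, and without it their log2 fold changes were 0.056 and 0.050. Rpl3, which helps to form the peptidyl transferase centre, had 1453 and 2512 CPM in the knockouts, against 1496 and 1177 CPM in the controls. Rpl36 and Rpl37a, which encode small basic proteins, had log2 fold changes of 0.58 (SE 0.33) and 0.52 (SE 0.30), and in both of them the knockouts lay above both controls. Without knockout 2 these values were 0.080 and 0.19. Rpl38, known in mice for its part in the translation of Hox mRNAs, had 164 and 254 CPM in the knockouts and 152 and 166 CPM in the controls. Without knockout 2 the log2 fold change was 0.12 for Rpl3, in place of 0.57, and 0.048 for Rpl38, in place of 0.39.

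Rpl4, Rpl29, Rpl23a, Rpl22 and Rpl41 had log2 fold changes of at most 0.40. Rpl4 had 1679 and 1857 CPM in the knockouts and 1632 and 1531 CPM in the controls, a log2 fold change of 0.16 (SE 0.32). For Rpl29 the values were 366 and 430 CPM in the knockouts and 447 and 335 CPM in the controls. The log2 fold change of Rpl29 was 0.03, which turned below 0 under some settings. Rpl23a had 592 and 881 CPM in the knockouts, against 690 and 603 CPM in the controls, with a log2 fold change of 0.19. Rpl22, whose protein binds RNA also outside the ribosome, had 448 and 539 CPM, against 396 and 432 CPM. Rpl41, which encodes the smallest of the ribosomal proteins, had 767 and 1137 CPM, against 709.9 and 735 CPM. In both of these the knockouts lay above the controls. Without knockout 2 the log2 fold change was 0.12 for Rpl22, in place of 0.25, and 0.089 for Rpl41, in place of 0.40. It was 0.089 for Rpl4, −0.12 for Rpl23a and −0.091 for Rpl29.

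In the small subunit, Rps27 and Rps27a had the highest fold changes. Rps27, a zinc-binding protein, had 263 and 665 CPM in the knockouts and 295 and 261 CPM in the controls (log2 fold change 0.74, SE 0.44). Rps27a, which is made as a fusion with ubiquitin, had 566 and 1259 CPM, against 588 and 553 CPM (log2 fold change 0.68, SE 0.42). Without knockout 2 these log2 fold changes were −0.078 and −0.0081. Rps12, a neighbour of these genes in the ranking, had 734 and 1724 CPM in the knockouts and 796 and 746 CPM in the controls. Thus in all 3 genes knockout 1 was near or below the lower control, while knockout 2 was far above the other libraries. For Rps12 the log2 fold change was 0.67, and −0.068 without knockout 2.

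Small-subunit genes with known roles in signalling or disease had knockout 2 highest, apart from Rps26. Rps6, the S6 kinase substrate, had 725 and 1377 CPM in the knockouts and 746 and 631 CPM in the controls (log2 fold change 0.61, SE 0.38). Rps19, mutated in human Diamond-Blackfan anaemia, had 524 and 963 CPM, against 526 and 489.6 CPM. Rpsa, also known as a laminin receptor, had 1817 and 2505 CPM, against 1781 and 1438 CPM. Rps26, likewise mutated in that anaemia, differed from them, with 510.2 and 533 CPM in the knockouts and 533 and 461 CPM in the controls (log2 fold change 0.07, SE 0.27). For Rps26 control 1 was the highest library. Without knockout 2 the log2 fold change was 0.077 for Rps6, 0.048 for Rps19, in place of 0.55, 0.18 for Rpsa, in place of 0.42, and 0.041 for Rps26.

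Of the small-subunit genes highest per length, Rps15 averaged 3697 TPM and Rps2 2823 TPM over the 4 libraries. Rps15 had 695 and 997 CPM in the knockouts and 643 and 657 CPM in the controls. For Rps2 the values were 1617 and 2076 CPM, against 1635 and 1292 CPM. Rps16, a member with one of the smallest p-values, had 650.1 and 1128 CPM, against 593 and 564 CPM (log2 fold change 0.62, SE 0.35). In Rps15 and Rps16 both knockouts lay above both controls, whereas in Rps2 the groups overlapped. Without knockout 2 the log2 fold change was 0.17 for Rps16, 0.10 for Rps15, in place of 0.38, and 0.15 for Rps2, in place of 0.34.

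**Figure D4:**
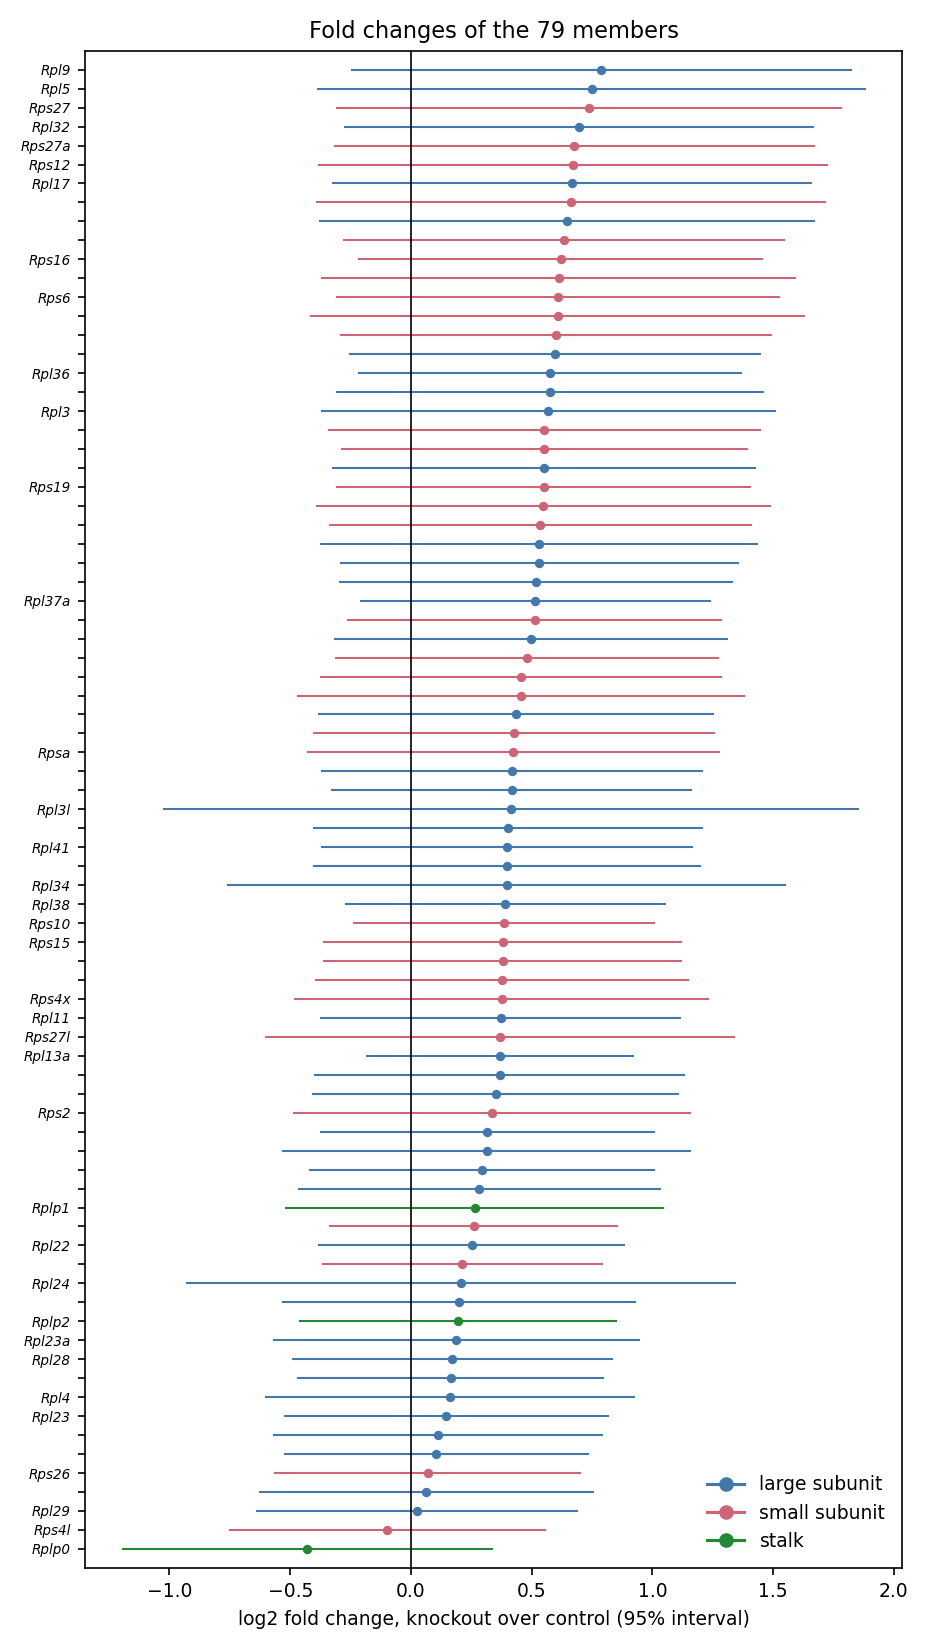
Log2 fold change, knockout over control, with its 95% interval (horizontal axis) for the 79 members in order of size and coloured by subunit, with names for the genes described in the text. The values run from −0.43 for Rplp0 to 0.79 for Rpl9, and all 79 intervals include 0.

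The stalk genes, whose proteins recruit the GTPases of elongation to the large subunit, did not move together. Rplp0, the base of the stalk, had 1445 and 1411 CPM in the knockouts and 2037 and 1810 CPM in the controls. The groups did not overlap, and the log2 fold change was −0.43 (SE 0.32), with a 95% interval of −1.19 to 0.33. It did not pass edgeR's test. It stayed between −0.51 and −0.33 with each library left out in turn, and below 0 under each scaling tried. Rplp1 had 1289 and 1690 CPM in the knockouts and 1321 and 1159 CPM in the controls (log2 fold change 0.26, SE 0.33). Rplp2 had 558 and 625 CPM, against 471 and 562 CPM (log2 fold change 0.19, SE 0.27). Rplp1 and Rplp2, whose proteins form dimers on Rplp0, thus had values of the opposite sign to Rplp0, though none passed the test. Without knockout 2 they were at 0.059 and 0.11. Rplp0 is often used as a reference gene in quantitative PCR.

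The level per length varied far more between members than between libraries. Length here is the deposited gene length, which can exceed that of the mRNA. Rplp1 was highest at 8540 TPM averaged over the 4 libraries, the median member stood at 1128 TPM, and 49 members were above 1000 TPM. Only 5 members were below 100 TPM, namely Rpl13a, Rps4l, Rps10, Rpl24 and Rpl3l, and the next lowest, Rps27l, stood at 257 TPM. Rpl13a, known in human cells for a role in translational silencing, was listed at 49.8 and 51.0 TPM in the knockouts and 37.9 and 43.7 TPM in the controls. Rps10 was at 23.5 and 21.9 TPM, against 17.2 and 19.0 TPM. Rpl24, altered in the Belly spot and tail mouse, was at 4.66 and 3.86 TPM, against 3.58 and 4.08 TPM.

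Rpl24, Rpl13a and Rps10 share exons with another gene on the same strand. In the GENCODE M21 annotation (GRCm38), 47.0% of the exon bases of Rpl24 also belong to Gm28037, 29.4% of those of Rpl13a to Gm45713 and 20.6% of those of Rps10 to RPS10-NUDT3. These 3 overlapping genes had 0 counts in all 4 libraries. Whether reads in shared exons were counted is not given in the sources used here, so the levels of these 3 members are uncertain. Their log2 fold changes were 0.21 for Rpl24, 0.37 for Rpl13a and 0.38 for Rps10.

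Paralogs that replace a main protein in certain tissues were few and low. Rpl3l, the striated-muscle paralog of Rpl3, had 23 and 18 counts in the knockouts and 13 and 22 in the controls. That is 0.695 and 0.642 CPM, against 0.374 and 0.627 CPM, with a log2 fold change of 0.42 (SE 0.60). The skeletal muscle markers summed to 74.9 and 148 CPM in the knockouts and 116 and 27.2 CPM in the controls, with 7 of 10 tested and Myh1, Myh2 and Myh4 at 0 counts in every library. Rps27l, a paralog of Rps27 known as a p53 target, had 46.9 and 106 CPM in the knockouts, against 71.4 and 47.3 CPM in the controls. Its groups overlapped, and its log2 fold change of 0.37 turned to −0.34 without knockout 2. Rps4l, a near copy of the X-linked Rps4x, had 16.0 and 16.3 CPM in the knockouts and 19.7 and 14.9 CPM in the controls, while Rps4x had 1330.2 and 1967 CPM, against 1435 and 1107 CPM. Reads of so similar a pair may have been split between them. GENCODE M21 types Rps4l as a transcribed processed pseudogene, whereas the deposited TPM table types it as protein coding. The testis paralogs Rpl10l and Rpl39l were not tested, with 0 CPM for Rpl10l in every library.

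Processed pseudogenes, copies of the members' mRNAs, bear on single members. The 105 pseudogenes named after 47 of the members summed to 22798 and 17673 counts in the knockouts and 18571 and 20733 in the controls. That is 1.27% and 0.739% of the members' own counts in the knockouts, against 0.976% and 1.18% in the controls. Rpl34-ps1 had 2524 and 158 counts in the knockouts and 212 and 240 in the controls, while its parent Rpl34 had 9183 and 22508 counts, against 15300 and 13331. Rps13-ps1 had 349 and 2205 counts in the knockouts and 329 and 340 in the controls, while Rps13 had 10614 and 18353, against 12165 and 11030. Rpl34-ps1 and Rps13-ps1 were each high in 1 knockout alone, and both were picked after their values were seen. Rps10-ps2, picked in the same way, had 406 and 304 counts in the knockouts and 321 and 344 in the controls. Its parent Rps10 had 544 and 495 counts, against 432 and 480. Since near-identical copies can exchange reads, the values of Rpl34, Rps13 and Rps10 are uncertain. Rpl34 and Rpl34-ps1 together were at 354 and 808 CPM in the knockouts and 446 and 387 CPM in the controls. Rps13 and Rps13-ps1 together were at 331 and 733 CPM, against 360 and 324 CPM. Knockout 2 was the highest library in both sums.

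Of 8 ribosomal protein genes with other symbols, 6 had a log2 fold change above 0, 6 were highest in knockout 2 and 0 passed the test. Rack1, a scaffold of the small subunit, had 1009 and 2391 CPM in the knockouts and 1082 and 929 CPM in the controls (log2 fold change 0.76, SE 0.46). Rps3a1 had 1824 and 2421 CPM, against 1639.8 and 1718 CPM. Fau, whose product holds the small-subunit protein eS30 fused to a ubiquitin-like part, had 652 and 779 CPM, against 489 and 585 CPM. In Rps3a1 and Fau both knockouts lay above both controls. Knockout 2 minus knockout 1 had a median of 0.35 over the 8, and 4 of the 8 were above 0 without knockout 2. There Rack1 was at 0.0091, Rps3a1 at 0.12, in place of 0.34, and Fau at 0.28, in place of 0.41.

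Other TOP mRNAs were also mostly highest in knockout 2. Of 17 translation factors and related genes with such mRNAs, 13 were above 0, 0 passed the test and 11 were highest in knockout 2, with a median log2 fold change of 0.27. Eef1a1, which delivers aminoacyl-tRNA, had 8035 and 14910 CPM in the knockouts and 8751 and 7305 CPM in the controls. The subunit gene Eif3h of the initiation factor eIF3 had 263 and 537 CPM, against 248 and 258 CPM. The median of the list without knockout 2 was 0.0043, with 10 of 17 above 0, and Eef1a1 was at 0.0043, in place of 0.52, and Eif3h at 0.059, in place of 0.66.

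Genes that assemble ribosomes had another pattern across the controls. The 32 biogenesis genes had a median log2 fold change of 0.14, with 23 above 0 and 0 passing, and 24 were highest in knockout 2. Their median member stood at −0.31 and 0.43 in knockouts 1 and 2 and at 0.23 and −0.33 in controls 1 and 2, on the log2 scale around each gene's mean. Control 1 was thus nearer to knockout 2 than to control 2. The median log2 fold change without knockout 2 was −0.28, with 1 of 32 above 0. Ncl, the nucleolar protein nucleolin, had 597 and 701 CPM in the knockouts and 970 and 603 CPM in the controls. The 15 genes of RNA polymerase I, which makes ribosomal RNA, had a median of 0.08, with 10 highest in knockout 2. The 21 genes of mTORC1 signalling and MYC had a median of 0.00, with 4 highest in knockout 2, and the 13 genes of the p53 response had one of −0.01, with 3. Medians of these 3 lists without knockout 2 were −0.013, 0.040 and 0.019. In these 3 lists 0 genes had an unadjusted p under 0.05 in edgeR.

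Knockout 2 was also high in genes of other protein complexes. It was the highest library in 58 of 78 mitochondrial ribosomal protein genes, in 30 of 38 nuclear genes of oxidative phosphorylation and in 11 of 14 proteasome core genes, against 29.9% of all genes. The median log2 fold changes of these lists were 0.16, 0.26 and 0.20. Without knockout 2 they were −0.090, 0.029 and −0.15. Knockout 2 minus knockout 1 had medians of 0.46, 0.47 and 0.63, against 0.66 in the ribosomal protein genes. Whether these lists differ from the members was not tested.

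**Figure D5:**
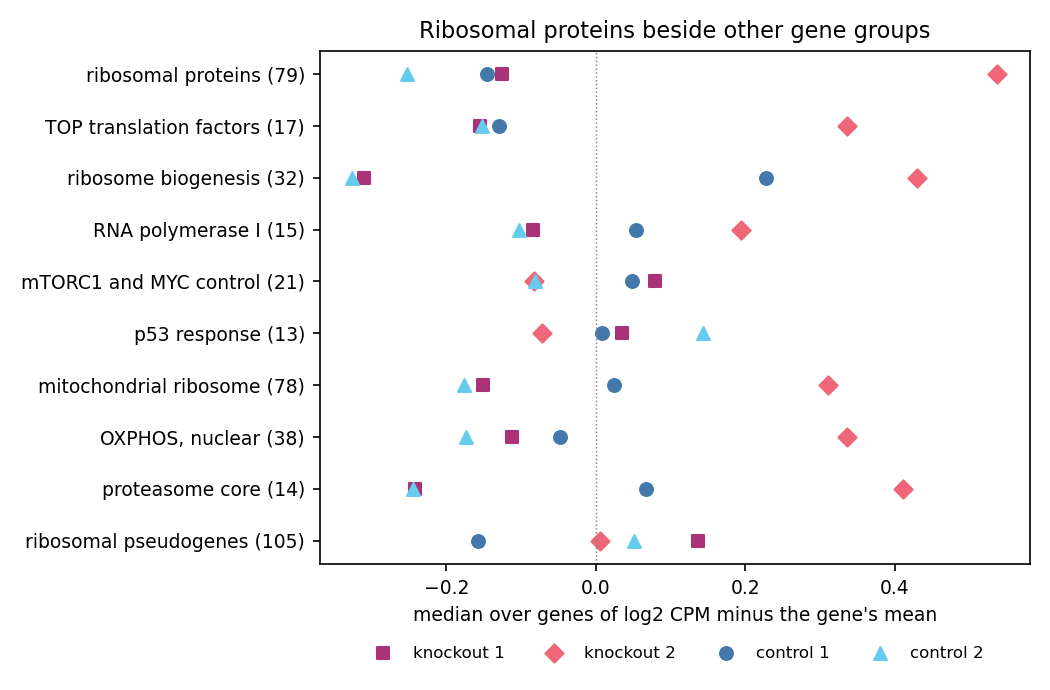
Median over the genes of each list of log2 CPM minus the gene's mean (horizontal axis), by library, with the number of genes tested in brackets. Of the 10 lists drawn, knockout 2 lies farthest right for ribosomal proteins, at 0.54, against −0.08 for mTORC1 and MYC control and −0.07 for the p53 response. Markers of cell types are not drawn. Among them the knockout 2 median was higher than in the members for smooth muscle (0.69), red blood cells (0.84) and adipocytes (3.82), and lower for the others.

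Gene length, markers of other cell types and the mitochondrial share are given beside these values. Length is the deposited gene length, which in 78 of 79 members equalled all annotated exon bases of the gene together in GENCODE M21. It can exceed the length of the mRNA, so these classes do not match genes by mRNA length. Among genes with a mean log2 CPM over 3 and a length over 1000 and up to 1500 bases, knockout 2 minus knockout 1 had a median of 0.79 over 14 members and of 0.20 over 444 other genes. Over 3000 and up to 5000 bases it was 0.79 over 13 members and 0.055 over 3374 other genes. In the classes up to 1000, up to 2000 and up to 3000 bases it was 0.65, 0.52 and 0.69 over members, against 0.027, 0.19 and 0.13 over other genes. Over 5000 bases it was 0.87 over 2 members, against −0.0053. After a correction for this gene length the members' median log2 fold change was 0.34, in place of 0.42. Adipocyte markers summed to 0.514 and 38.2 CPM in the knockouts and 1.24 and 6.78 CPM in the controls, with 5 of 7 tested, and Adipoq and Cidec were at 0 in knockout 1 and control 1. Red blood cell markers summed to 42.0 and 139 CPM, against 116 and 35.5 CPM. Knockout 2 was highest in 8 of 8 smooth muscle, 5 of 5 red blood cell and 5 of 5 adipocyte markers. Elsewhere it was highest in 4 of 7 skeletal muscle, 2 of 7 general epithelial, 1 of 8 gland and 1 of 8 T and NK cell markers. It was highest in 0 of 9 stroma, 0 of 6 B cell, 0 of 8 macrophage and 0 of 15 dividing-cell markers. Dividing-cell markers, all 15 of them below 0 in log2 fold change, summed to 553 and 505 CPM in the knockouts and 1114 and 748 CPM in the controls. Mitochondrially encoded genes took 2.75% and 2.93% of counts in the knockouts, against 2.66% and 4.52% in the controls. The part of these values in the members' levels was not tested.

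The members lie on 19 chromosomes, with 14 members on chromosome 7, in GENCODE M21. Within 10 Mb of Prss29, whose locus carries Cre, lie 6 members (Rpl10a, Rpl3l, Rps10, Rps18, Rps2 and Rps28), and within that distance of Pgr 0. Small nucleolar RNA genes, which guide the modification of ribosomal RNA, lie inside 29 members. Those 29 had a median log2 fold change of 0.40 and the 50 without had one of 0.42, a difference that was not tested.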

How the data were processed

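The submitters' processing notes name Trimmomatic, STAR, featureCounts and the genome build GRCm39. Tool versions, annotation, strand setting and the handling of reads that map to several places: not given in the sources used here. The authors deposited raw counts for 57186 genes and a TPM table for 19991 of them. In that deposited table TPM equals count over gene length, rescaled to one total per library, to within 3.82e-11, and each gene kept has a total of at least 51 counts.

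The count test was edgeR's (4.0.16, R 4.3.3) quasi-likelihood test on group alone, using TMM factors, filterByExpr (minimum count 10, total 15; 20950 genes kept) and Benjamini-Hochberg adjustment over all genes kept, at 0.05. Fits used 2 residual degrees of freedom. No pair of libraries came near sampling noise (lowest chi-square per degree of freedom 40.9). Members and lists were chosen with earlier results of these data known. Named are the 3 most abundant per structural group and all stalk genes, the 5 highest, 5 lowest and 5 smallest p, paralogs with their main gene, and members with a known further role. In other lists the rule takes the 3 smallest p and the 2 highest CPM. Other names were chosen after their values were seen. Alternatives were other scalings, DESeq2 1.42.0, limma 3.58.1 (voom, and log2(TPM + 1) with a pseudocount of 1), other filters, a length correction by loess, replicate blocks and leaving out each library. The tests were tried on simulated counts. Results for some members are not reported here.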

Additional observations from a re-analysis of the deposited data

How the results depend on the processing

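No setting called a member: the smallest adjusted p of any member was 0.313, without knockout 1. The median log2 fold change of the members lay between 0.31 and 0.42 under 13 settings with all libraries, and between 0.062 (without knockout 2) and 0.71 (without knockout 1) with 1 library left out. The difference in share of counts was 1.51 percentage points without mitochondrially encoded genes, and 0.33 to 2.69 with 1 library left out. The number of genes called over all genes, 1 in the main test, was 85 with DESeq2, 0 with limma-voom, 3 with limma on log2(TPM + 1), 54 with no low-count filter and 0 with the stricter one, and 16 to 49 with 1 library left out. The cause of these changes was not tested.

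The replicate numbers are not said to pair samples. With the replicate number as a block the median of the members was 0.38 and 32 genes were called, and 14 with block and length correction together (median 0.32). Differences between replicates 1 and 2 correlated at −0.44 between the groups over 20950 genes. A crossed block, added after seeing the data, called 37 genes, and 0 members were called under any block.

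Of 763 values of 45 named genes under alternatives, 23 turned their sign and 740 kept it. With the length correction, Rpl29 was at −0.067, Rps26 at −0.0090 and Pgr at 0.028, and with block and length correction at −0.055, −0.0074 and 0.025. Rpl29 was at −0.012 with total counts alone and −0.022 on log2(TPM + 1). With 1 library left out, the log2 fold changes that turned ranged as follows: Rpl23a −0.12 to 0.45, Rpl29 −0.17 to 0.26, Rpl5 −0.075 to 1.27, Rps26 −0.034 to 0.19, Rps27 −0.078 to 1.26, Rps27a −0.0081 to 1.14, Rps27l −0.34 to 0.84, Rps4l −0.29 to 0.13, Rpl34 −0.56 to 0.97, Rps12 −0.068 to 1.16, Ncl −0.58 to 0.12, Rrp9 −0.047 to 0.76, Pgr −0.098 to 0.069.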

Other observations

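Some members overlap a gene on the opposite strand, and the counting is not stated to use strand, so reads of the 2 genes cannot be told apart. In GENCODE M21, 66.2% of the exon bases of Rpl35 overlap Wdr38, which had 5147 and 8483 counts in the knockouts and 6085 and 5101 in the controls. Rpl35 itself had 14926 and 21791 counts, against 16009 and 13930. For Rpl23a, 59.7% of exon bases overlap Tlcd1, with 18597 and 22622 counts in the knockouts and 22743 and 20124 in the controls, beside 19577 and 24703, against 23959 and 21170, for Rpl23a. Scaled for library size, Wdr38 was at 156 and 302 CPM in the knockouts and 175 and 145 CPM in the controls, and Rpl35 at 451 and 777 CPM, against 461 and 397 CPM. Tlcd1 was at 562 and 806 CPM in the knockouts and 655 and 573 CPM in the controls, and Rpl23a at 592 and 881 CPM, against 689.6 and 603 CPM. In each pair the order of the 4 libraries by CPM was the same in both genes. These pairs were picked after their values were seen.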
